A study of Mus musculus with 2 samples.

Results

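The genes of MHC class I antigen presentation described here are 7 heavy chains (H2-K1, H2-D1, H2-Q4, H2-Q6, H2-Q7, H2-T23 and H2-M3), the light chain B2m, the peptide transporter subunit Tap1 and the loading factor Tapbp. They were taken by name from the 12393 genes with a probe set of their own and from shared probe sets, as every probe set whose platform annotation lists at least 1 of these 10 genes, which gave 30 of the 22690 probe sets on the array. Of these, 22 were annotated with 1 gene and 8 with several genes. H2-Q4, H2-Q6, H2-Q7 and H2-T23 had no probe set of their own and were read only by probe sets shared with other genes. Splenic CD4+ T cells of DBA/1 mice, a strain susceptible to arthritis after immunisation with glucose-6-phosphate isomerase, were compared with those of C57BL/6 mice, which resist it. Both strains had been immunised with this protein, and spleen cells were taken at day 7 and sorted magnetically for CD4. There was 1 array per strain. The sources used here give neither the ages of the mice nor the number of animals behind each RNA sample.

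Class I molecules show peptides from inside the cell to CD8 T cells and to receptors of natural killer cells. The proteasome cuts proteins into peptides, the TAP transporter carries these into the endoplasmic reticulum, and tapasin and other chaperones load them onto a heavy chain paired with beta 2-microglobulin. H2-K1 and H2-D1 encode the classical, highly polymorphic heavy chains. The H2-Q, H2-T and H2-M genes encode non-classical chains of narrower function, and many are near copies of each other. The whole system is induced by interferons. DBA/1 mice carry the q haplotype of the H2 complex and C57BL/6 mice the b haplotype, so the polymorphic genes among them are present as different alleles.

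The promoters of 7 of the genes are shown because most class I heavy chain genes share the same short upstream block, whichever way their signals differed between the strains. The shared block is the kappaB-type site and the interferon regulatory factor core given below. Upstream windows of 250 bases were taken from RefSeq (GRCm38.p6, the C57BL/6J genome) for all 10 genes, the first listed start being used for H2-K1. They hold the C57BL/6J sequence, and the DBA/1 sequence was not analysed here. Capitals mark 3 motifs searched on both strands, which did not overlap in these windows: the kappaB-type site GGGATTNCC, the interferon regulatory factor core AANNGAAA (on the minus strand of the heavy chain windows) and the cyclic AMP element core TGACG.
H2-K1 (chr17:34000348-34000597, minus strand): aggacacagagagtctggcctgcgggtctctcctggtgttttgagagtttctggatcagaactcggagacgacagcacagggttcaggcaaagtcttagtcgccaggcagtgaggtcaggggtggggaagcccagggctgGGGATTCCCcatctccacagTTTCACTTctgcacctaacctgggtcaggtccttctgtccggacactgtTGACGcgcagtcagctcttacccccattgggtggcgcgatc
H2-D1 (chr17:35262844-35263093, plus strand): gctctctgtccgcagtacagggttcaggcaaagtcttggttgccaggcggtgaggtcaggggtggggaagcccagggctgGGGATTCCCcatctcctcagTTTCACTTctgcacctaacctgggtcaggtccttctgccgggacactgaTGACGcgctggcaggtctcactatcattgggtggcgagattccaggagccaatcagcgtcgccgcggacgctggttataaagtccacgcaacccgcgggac
H2-Q4 (chr17:35379367-35379616, plus strand): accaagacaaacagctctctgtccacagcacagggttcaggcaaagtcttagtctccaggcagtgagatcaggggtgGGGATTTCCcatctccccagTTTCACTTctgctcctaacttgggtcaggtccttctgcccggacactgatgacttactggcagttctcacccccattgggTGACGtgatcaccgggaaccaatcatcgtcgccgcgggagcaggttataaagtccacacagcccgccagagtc
H2-Q6 (chr17:35424600-35424849, plus strand): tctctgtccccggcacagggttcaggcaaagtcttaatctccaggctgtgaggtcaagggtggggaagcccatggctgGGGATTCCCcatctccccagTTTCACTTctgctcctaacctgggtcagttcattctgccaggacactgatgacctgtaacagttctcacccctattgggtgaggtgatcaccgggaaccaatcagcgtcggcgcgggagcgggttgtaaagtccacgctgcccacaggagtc
H2-Q7 (chr17:35438905-35439154, plus strand): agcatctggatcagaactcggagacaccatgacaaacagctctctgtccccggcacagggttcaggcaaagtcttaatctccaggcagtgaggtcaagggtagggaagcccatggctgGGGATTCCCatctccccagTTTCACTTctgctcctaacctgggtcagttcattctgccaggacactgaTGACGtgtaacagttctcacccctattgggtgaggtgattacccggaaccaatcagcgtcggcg
B2m (chr2:122147437-122147686, plus strand): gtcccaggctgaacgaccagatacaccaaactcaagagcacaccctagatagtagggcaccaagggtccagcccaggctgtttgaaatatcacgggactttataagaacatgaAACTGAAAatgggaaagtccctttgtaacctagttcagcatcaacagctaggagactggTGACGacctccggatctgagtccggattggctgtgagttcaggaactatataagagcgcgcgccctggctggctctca
Tap1 (chr17:34187306-34187555, plus strand): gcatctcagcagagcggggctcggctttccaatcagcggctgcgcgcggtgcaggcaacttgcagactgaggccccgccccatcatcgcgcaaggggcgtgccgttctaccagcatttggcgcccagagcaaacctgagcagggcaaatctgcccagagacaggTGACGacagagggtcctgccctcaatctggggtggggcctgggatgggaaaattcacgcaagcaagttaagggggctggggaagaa
The kappaB-type site was found in 5 of the 10 windows, those of H2-K1, H2-D1, H2-Q4, H2-Q6 and H2-Q7, and in 0.855% of 27025 promoter windows of the same length. The interferon regulatory factor core was found in 8 of the 10 windows and in 21.6% of all. TGACG was found in 7 of the 10 and in 17.9% of all. The kappaB-type letters were chosen after these promoters had been read. The H2-Q6 window lacks TGACG. In the H2-Q4 window TGACG stands at -73 from the start, after the letters ATTGG at -79. In the H2-K1, H2-D1 and H2-Q7 windows it stands before those letters. The Tap1 window holds TGACG but neither of the other motifs. The Tap1 window shares 225 bases with that of its divergent neighbour Psmb9, which encodes an immunoproteasome subunit.

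Values are deposited probe set intensities on a linear scale. Differences are log2 ratios of DBA/1 over C57BL/6, after signals under an array's median (37.6 for DBA/1 and 38.04 for C57BL/6) had been set to that median, the floor. Where 1 side was under the floor the fold is a bound, written "at least". With 1 array per strain no test is possible and no difference below has a replicate error. As the nearest measure of error, the SD of the difference between the log2 ratios of repeat probe sets was 0.43 over 2325 genes, or 0.31 per probe set, which covers probe error only. Affymetrix gives the suffix _x_at to probe sets whose probes may also bind other transcripts. It was carried by 13 of the 30 probe sets here, against 6.68% of all non-control probe sets on the array, and all 4 H2-K1 probe sets annotated with 1 gene carry it.

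T cell markers were read first. The Cd4 signal was 913 in DBA/1, against 857 in C57BL/6, and none of 6 measured T cell marker genes was 2-fold apart. These values compare the arrays with each other and cannot show how pure the CD4+ T cells were. Markers of other cells were read too. All 12 neutrophil markers above the floor were higher in DBA/1 (summed signal of the list 34882 in DBA/1 and 10737 in C57BL/6), as were all 11 monocyte and macrophage markers measured on both arrays (6966 and 3078), and all 5 CD8 T cell markers measured on both were lower (638 and 1611). B cell markers were higher in 6 of 8 (5017 and 4261) and dendritic cell markers in 5 of 7 (5544 and 3075). Natural killer cell markers were higher in 2 of 4 (2910 and 2453, of which Tyrobp alone gave 2381 and 1343). No marker was at 0. Under the floor in DBA/1 lay 1 neutrophil, 0 macrophage, 2 B cell, 1 dendritic, 3 natural killer and 1 CD8 marker, against 1, 2, 3, 1, 2 and 0 in C57BL/6. In such bulk samples, fewer cells of a type and less RNA per cell cannot be told apart. The part of these other cells in the class I values was not tested.

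Of the 30 probe sets, 22 were above the floor on at least 1 array. The other 8 reached at most 12.6 in DBA/1 and 19.7 in C57BL/6: 4 of H2-D1 (1425614_x_at, 1451934_at, 1452544_x_at and 1427651_x_at), 3 of Tap1 (1448177_at, 1449803_x_at and 1420274_at) and 1 annotated with H2-D1, H2-Q2 and Gm38417 (1422348_at). Among the 22, 7 differed by 2-fold or more, against 5.6% of all 11885 probe sets above the floor. By direction, 1 had the higher signal in DBA/1 (3.24% of all) and 6 the lower (2.36% of all). Over the whole array these shares are 385 probe sets higher and 280 lower in DBA/1 on the deposited scale, and 294 higher and 345 lower after median centring. The median log2 ratio of the 22 was -0.18 and that of all 11885 was 0.076. These counts separate by annotation. Probe sets of 1 gene were at least 2-fold apart in 2 of 15 cases, both lower in DBA/1. The share over all probe sets of 1 gene was not computed. Of the 6936 genes above the floor, each read by 1 such probe set, 5.74% were at least 2-fold apart and 1.9% at least 2-fold lower in DBA/1. Probe sets of several genes were at least 2-fold apart in 5 of 7 cases, against 7.51% of the 453 such probe sets on the whole array; 1 was higher in DBA/1 (3.09% of the 453) and 4 were lower (4.42%). One of the 7, annotated with H2-Q5 and H2-K1, passed the floor through DBA/1 alone and so had to differ.

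**Figure D1:**
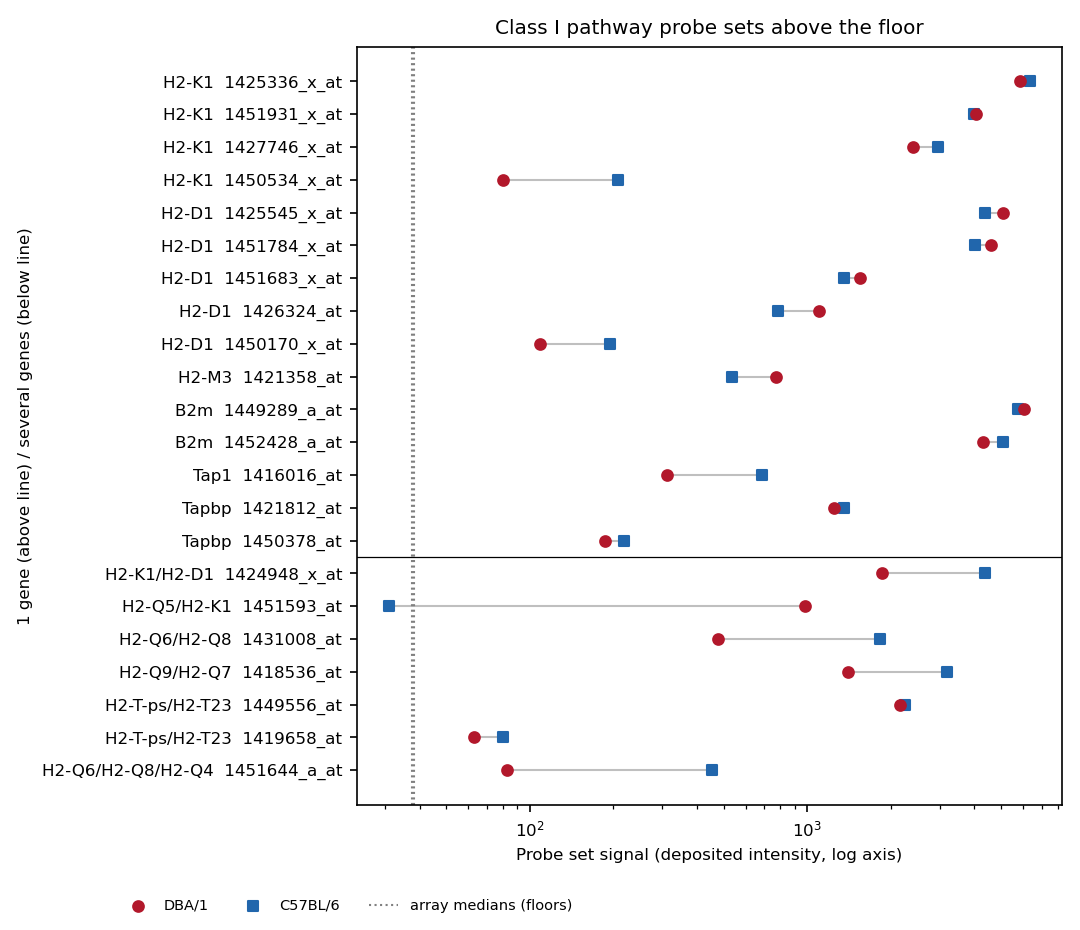
Deposited signal (log axis) of the 22 probe sets above the floor, with circles for DBA/1, squares for C57BL/6 and dotted lines at the array medians. Probe sets of 1 gene stand above the horizontal line and mostly show close pairs, while most probe sets of several genes below it show wide gaps, the widest for 1451593_at (978 in DBA/1 and 31.0 in C57BL/6).

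The classical heavy chain genes read about the same in both strains on most of their own probe sets, and each had 1 probe set that was clearly lower in DBA/1. H2-K1 is the classical chain at the centromeric end of the complex. Its probe set 1425336_x_at read 5844 in DBA/1 and 6348 in C57BL/6, and 1451931_x_at read 4054 in DBA/1 and 3988 in C57BL/6. Probe set 1427746_x_at read 2397 in DBA/1 and 2956 in C57BL/6. The log2 ratios of these 3 lay at -0.12, 0.024 and -0.30, within or close to the probe error of 0.31; that of 1451931_x_at fell below 0 under all 4 other scalings (lowest -0.17). The fourth, 1450534_x_at, read 80.05 in DBA/1 and 208 in C57BL/6. Its 2.60-fold lower value in DBA/1 (log2 ratio -1.38) was not shared by the other 3.

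H2-D1, the classical chain on the far side of the class II and class III regions, gave the same kind of split. Probe set 1425545_x_at read 5060 in DBA/1 and 4379 in C57BL/6, and 1451784_x_at read 4585 in DBA/1 and 4009 in C57BL/6. Probe set 1451683_x_at read 1545 in DBA/1 and 1359 in C57BL/6, and 1426324_at, the only one of the 5 above the floor without the _x_at suffix, read 1105 in DBA/1 and 783 in C57BL/6. These 4 had log2 ratios of 0.19 to 0.50, all higher in DBA/1 as deposited, with 1451784_x_at at -0.0025 after quantile normalization. The fifth, 1450170_x_at, went the other way, with 108 in DBA/1 and 195 in C57BL/6 (log2 ratio -0.84, 1.79-fold lower in DBA/1). None of the 5 reached 2-fold. The 5 ratios span 1.34 on the log2 scale, 4.38 times the probe error, so no single H2-D1 difference is given.

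A pair of probe sets shared by H2-K1 with another gene differed in opposite directions. Probe set 1451593_at, annotated with H2-Q5 and H2-K1, read 978 in DBA/1 and 31.0 in C57BL/6, where it was under the floor. It was at least 25.7-fold higher in DBA/1. The separate H2-Q5 probe set, 1450582_at, read 1.61 in DBA/1 and 0.912 in C57BL/6, under the floor on both arrays, and none of the 4 H2-K1 probe sets was higher in DBA/1 by more than 0.024 on the log2 scale. Probe set 1424948_x_at, annotated with H2-K1 and H2-D1, read 1859 in DBA/1 and 4377 in C57BL/6, 2.35-fold lower in DBA/1. Its log2 ratio of -1.24 lay beside the -1.38 of H2-K1 probe set 1450534_x_at and the -0.84 of H2-D1 probe set 1450170_x_at, and below those of the other H2-K1 and H2-D1 probe sets above the floor. Whether the probes of these sets match the q and b alleles equally well was not tested.

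**Figure D2:**
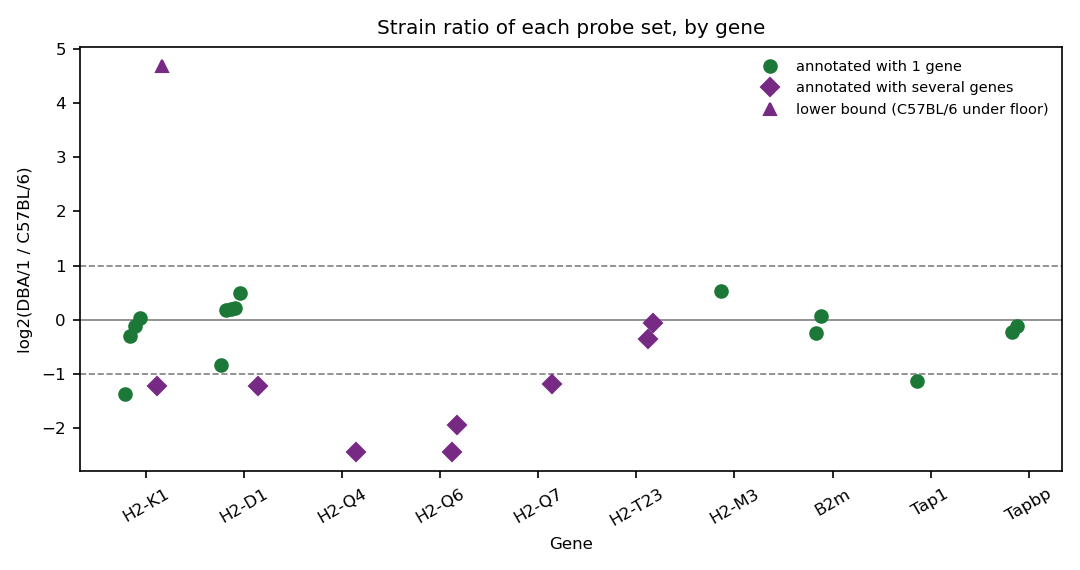
Log2 ratio of DBA/1 over C57BL/6 for each probe set above the floor, by gene, with circles for probe sets of 1 gene, diamonds for probe sets of several genes, a triangle for a lower bound and dashed lines at 2-fold. A shared probe set is drawn under each of the 10 genes it lists. H2-K1 spans from -1.38 to the bound of 4.68, the H2-Q points all lie below -1, and the H2-T23, B2m and Tapbp points lie between -0.36 and 0.068.

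The H2-Q genes were the non-classical chains that differed between the strains, and all 3 of their probe sets above the floor were lower in DBA/1 (1451593_at, shared by H2-Q5 and H2-K1, is left out here). H2-Q6, H2-Q7, H2-Q8 and H2-Q9 encode Qa-2-type chains, which are held on the cell surface by a glycolipid anchor, and H2-Q4 encodes the Qb-1 chain. Probe set 1451644_a_at, annotated with H2-Q4, H2-Q6 and H2-Q8, read 82.6 in DBA/1 and 452 in C57BL/6, 5.47-fold lower in DBA/1. Probe set 1431008_at, annotated with H2-Q6 and H2-Q8, read 476 in DBA/1 and 1835 in C57BL/6, 3.85-fold lower. Probe set 1418536_at, annotated with H2-Q7 and H2-Q9, read 1403 in DBA/1 and 3185 in C57BL/6, 2.27-fold lower. The 3 log2 ratios were -2.45, -1.95 and -1.18, and each stayed beyond 2-fold under all 8 other scalings, floors and pseudocounts. Each lay beyond 3 times the probe error, but probe sets of 1 class I gene disagreed by more than that. The ratios of the H2-K1 and H2-D1 probe sets of 1 gene above the floor span 4.58 and 4.38 times that error. The 3 H2-Q ratios cannot be assigned to 1 of the H2-Q genes, and the same limit on allele matching applies. H2-Q2 and H2-Q10, each with a probe set of its own, were under the floor on both arrays.

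H2-T23 and H2-M3 did not share this difference. H2-T23 encodes Qa-1, which presents leader peptides of other class I chains to the CD94/NKG2 receptors of natural killer cells. Its probe set 1449556_at, shared with the H2-T-ps pseudogene entry, read 2153 in DBA/1 and 2246 in C57BL/6 (log2 ratio -0.061), and 1419658_at, with the same annotation, read 62.6 in DBA/1 and 80.2 in C57BL/6 (-0.36). H2-M3, which presents peptides that begin with formylmethionine, read 771 in DBA/1 and 535 in C57BL/6, 1.44-fold higher in DBA/1. That log2 ratio of 0.53 lay between 0.39 and 0.53 over the 8 alternatives and under 2-fold in each. H2-M3 thus stood on the opposite side of 0 from the H2-Q and H2-T23 probe sets, and its distance from 0 was less than 2 times the probe error.

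The light chain did not differ beyond probe error on the deposited scale. B2m encodes beta 2-microglobulin, which classical heavy chains generally need to reach the cell surface in normal amounts. Its probe set 1449289_a_at read 6040 in DBA/1 and 5760 in C57BL/6, and 1452428_a_at read 4296 in DBA/1 and 5089 in C57BL/6. The log2 ratios of 0.068 and -0.24 had opposite signs as deposited, and the first turned negative under all 4 other scalings (lowest -0.073), while the second reached -0.42 after quantile normalization.

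Of the peptide transport genes, Tap1 was lower in DBA/1 and Tapbp was close in both strains. Tap1 encodes 1 subunit of the peptide transporter. Its probe set 1416016_at read 311 in DBA/1 and 687 in C57BL/6, 2.20-fold lower in DBA/1, with log2 ratios from -1.27 to -1.07 over the alternatives. This rests on 1 probe set, because the other 3 were under the floor on both arrays (at most 10.5 in DBA/1 and 19.7 in C57BL/6). Tap2, the partner subunit, read 413 in DBA/1 and 436 in C57BL/6 (log2 ratio -0.078). Psmb9, which shares the upstream window printed for Tap1, read 1066 in DBA/1 and 859 in C57BL/6 (log2 ratio 0.31). Tapbp encodes tapasin, which bridges the transporter and the heavy chain. Its probe sets 1421812_at (1246 in DBA/1 and 1359 in C57BL/6) and 1450378_at (186 in DBA/1 and 218 in C57BL/6) had log2 ratios of -0.13 and -0.23, both lower in DBA/1 and both within the probe error on the deposited scale.

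**Figure D3:**
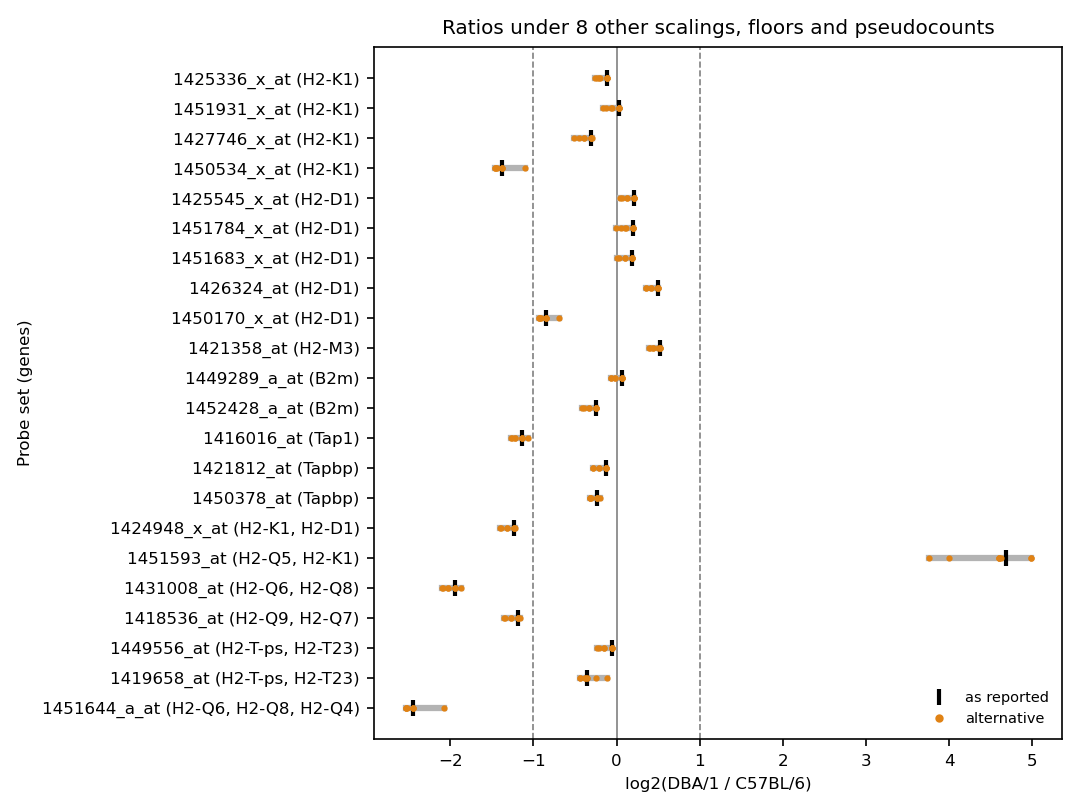
Log2 ratio of DBA/1 over C57BL/6 for each of the 22 probe sets above the floor, as reported (black bar) and under 8 other scalings, floors and pseudocounts (orange dots, joined by a grey range). The 7 probe sets beyond 2-fold stay beyond it in every setting drawn, and the widest range, 3.76 to 4.98, is that of 1451593_at.

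The rest of the class I pathway was described from lists of genes, each read by its brightest probe set with 1 gene symbol. Of all 6936 genes above the floor, 5.74% differed by 2-fold or more, 3.84% with the higher signal in DBA/1 and 1.9% with the lower, and the median log2 ratio was 0.10. None of the 19 genes of peptide loading and editing was 2-fold apart. Their median log2 ratio was 0.19, with 15 of 19 higher in DBA/1, and 12 or 13 under the 4 other scalings. The disulfide isomerase Pdia6 (607 in DBA/1 and 371 in C57BL/6, 1.64-fold) and the lectin chaperone Canx (1326 in DBA/1 and 852 in C57BL/6, 1.56-fold) differed most. Another Canx probe set, 1422845_at, lay at 0.22, and 1428935_at, under the floor in DBA/1, was at or below -0.55. Sec61a1, of the translocation channel, was 1.30-fold higher in DBA/1 by its brightest probe set, and its 5 other probe sets had log2 ratios of -0.24 to 0.39. The chaperone Hspa5 (BiP) had a log2 ratio of 0.37. The peptide-loading chaperone Calr was 1.23-fold lower in DBA/1, with its other probe sets at 0.14 and 0.13. The trimming enzyme Erap1 read 288 in DBA/1 and 273 in C57BL/6.

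Proteasome genes that feed the pathway were within 2-fold as well. The 6 measured genes of the immunoproteasome and its activator had a median log2 ratio of 0.12, which lay between -0.0011 and 0.031 under the 4 other scalings, with Psmb8 at 0.18, Psmb10 at -0.014, Psme1 at 0.015, Psme3 at 0.047 and the assembly factor Pomp at 0.47. Of the constitutive catalytic subunits that the immunoproteasome replaces, Psmb5 lay at 0.54, Psmb7 at 0.31 and Psmb6 at -0.47. Among these genes and the 6 of the 10 class I genes with a probe set of their own, Tap1 alone lay beyond 2-fold in the brightest probe set.

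Among other class I and class I-like chains, 15 of 24 listed genes had a probe set of their own and 10 of these were under the floor on both arrays. Of the 5 above it, 2 were at least 2-fold higher in DBA/1, against 3.84% of all genes above the floor. Of the 4 measured on both arrays, 1 was. Mr1, which presents vitamin B metabolites to MAIT cells, read 106 in DBA/1 and 34.4 in C57BL/6, at least 2.78-fold higher in DBA/1. Its second probe set, 1421898_a_at, read 113 in DBA/1 and 4.51 in C57BL/6. Both were above the floor in DBA/1 alone and so had to be higher there. Fcgrt, the heavy chain of the neonatal Fc receptor, read 297 in DBA/1 and 81.2 in C57BL/6, 3.65-fold higher. It is also expressed by phagocytes and B cells, whose marker lists were higher in DBA/1. Over genes measured on both arrays, the list medians were 1.88 for neutrophils, 0.90 for monocytes and macrophages and 1.05 for B cells (6 of 8 higher). Hfe, a regulator of iron uptake, was 1.53-fold higher, and Cd1d1, which presents lipids to NKT cells, was within 1.07-fold. Probe set 1449875_s_at, shared by H2-T9, H2-T10 and H2-T22, read 1066 in DBA/1 and 1255 in C57BL/6, whereas 1439121_at, with the same annotation, read 144 in DBA/1 and 101 in C57BL/6. Their log2 ratios, -0.24 and 0.51, point in different directions.

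**Figure D4:**
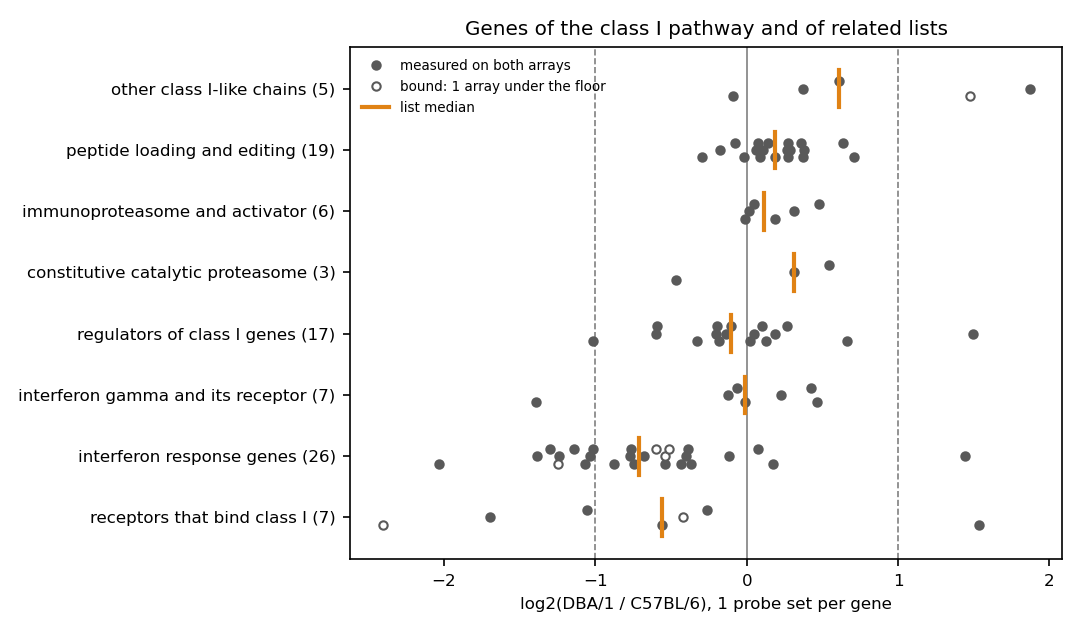
Log2 ratio of DBA/1 over C57BL/6 for genes above the floor (number in parentheses) in 8 lists around class I presentation, with filled points measured on both arrays, open points for bounds, orange bars for list medians and dashed lines at 2-fold. Peptide loading and proteasome genes lie inside 2-fold, and interferon response genes have the lowest median, -0.71.

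Regulators of class I transcription had a median log2 ratio of -0.11 over 17 genes, with 1 gene beyond 2-fold in each direction. Irf7, an interferon regulatory factor, read 131 in DBA/1 and 264 in C57BL/6, 2.02-fold lower. Ciita, best known as the class II transactivator, read 204 in DBA/1 and 72.6 in C57BL/6, 2.81-fold higher. The B cell and dendritic cell lists were also higher (median log2 ratios 1.05 and 1.004 over genes measured on both arrays). Irf9 and Irf2 had log2 ratios of -0.60 and -0.59, and Irf1, which acts at class I promoters, read 659 in DBA/1 and 749 in C57BL/6. The factor Rfx5, which binds the X box of class I promoters, was within 1.09-fold. Interferon gamma itself, Ifng, read 66.0 in DBA/1 and 173 in C57BL/6, 2.62-fold lower, while its receptor chains Ifngr1 and Ifngr2 had log2 ratios of -0.015 and 0.22.

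Interferon response genes outside the pathway were mostly lower in DBA/1, as Tap1 and the H2-Q probe sets were. Of the 22 measured on both arrays, 19 were lower in DBA/1, 8 of them at least 2-fold, and 1 was at least 2-fold higher, with a median log2 ratio of -0.75. Of all genes above the floor, 1.9% were at least 2-fold lower in DBA/1 and 3.84% at least 2-fold higher. The share of all genes lower by any amount was not computed. Another 4 interferon response genes (Oasl2, Oas3, Cxcl10 and Oasl1) passed the floor through C57BL/6 alone and so had to be lower. With them the median over 26 genes was -0.71. With the floor at percentile 60, 4 genes were at the floor on both arrays and 19 of the other 22 were lower. Among those 19, Oasl2 and Mx1 passed that floor through C57BL/6 alone and so had to be lower. Trim30a had 2 probe sets of its own that differed in size: 1417961_a_at read 340 in DBA/1 and 1389 in C57BL/6, 4.09-fold lower, and 1451860_a_at read 387 in DBA/1 and 527 in C57BL/6, 1.36-fold lower. The antiviral gene Rsad2 was 2.62-fold lower in DBA/1, the ISG15 protease gene Usp18 2.46-fold, the GTPase gene Iigp1 2.36-fold and the oligoadenylate synthetase gene Oas1a 2.20-fold. Oasl2, a related gene, was at least 2.37-fold lower. Rtp4 was 2.09-fold lower and the GTPase gene Gbp6 2.05-fold lower, and Irf7, given above, is on this list too. The guanylate-binding protein gene Gbp3 was 2.71-fold higher. Gbp2, counted as lower by its brightest probe set (log2 ratio -0.37), was higher in DBA/1 by its other probe set, 1435906_x_at (0.48). B2m, 3 of the 4 H2-K1 probe sets, Tapbp, Psmb8, Psmb9 and Psmb10, which interferons also induce, were within 1.24-fold. The fourth H2-K1 probe set was 2.60-fold lower in DBA/1. Of the shared ones that list H2-K1, 1424948_x_at was 2.35-fold lower and 1451593_at at least 25.7-fold higher. H2-D1 probe sets of 1 gene above the floor ranged from 1.79-fold lower to 1.41-fold higher. The part of interferon exposure in the Tap1 and H2-Q values was not tested.

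Receptors that bind class I were measured for 7 of 18 listed genes. Cd8b1, the beta chain of the CD8 co-receptor, read 16.1 in DBA/1, under the floor, against 199 in C57BL/6, a value at least 5.30-fold lower in DBA/1. Klrd1 (CD94), the receptor subunit for Qa-1, read 145 in DBA/1 and 470 in C57BL/6, 3.24-fold lower, and Klrk1 (NKG2D) was 2.08-fold lower. Cd8b1 and Klrk1 are themselves on the CD8 T cell marker list, whose other 4 genes had log2 ratios of -1.92 to -0.56. Klrd1 is on the natural killer cell list, whose median log2 ratio was -0.34 over 5 genes above the floor. Of these, 3 were lower in DBA/1 (Klrd1, Il2rb at -1.27 and Eomes, above the floor in C57BL/6 alone). The other 2 were higher (Tyrobp at 0.83 and Gzmb at 0.91). The summed signal of that list was higher in DBA/1, mostly through Tyrobp (2381 in DBA/1 and 1343 in C57BL/6). Pirb, an inhibitory receptor of myeloid and B cells that binds class I, read 433 in DBA/1 and 150 in C57BL/6, 2.89-fold higher, together with the higher neutrophil and macrophage lists. Of the Ly49 receptors, the 5 with a probe set of their own (Klra1, Klra2, Klra5, Klra7 and Klra8) were under the floor on both arrays. Probe set 1425436_x_at, shared by Klra9 and Klra3, read 163 in DBA/1 and 65.0 in C57BL/6, 2.51-fold higher in DBA/1.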

How the data were processed

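Splenic CD4+ T cell RNA of DBA/1 and C57BL/6 mice was measured on 1 Affymetrix-type array each. From 3 µg of total RNA, oligo(dT)-T7-primed, biotin-labelled cRNA was prepared, per the labels' protocols. The authors deposited 1 intensity per probe set, on a linear scale. Per the submitters' processing notes MAS5 was used; its version, its scaling target and a genome build were not given in the sources used here. Intensities were used as deposited: the median log2 ratio was 0.085 where both arrays exceeded the floor and 0.087 over 18 spike-in probe sets.

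The platform annotation gave 1 gene symbol to 20380 non-control probe sets, several to 691 and none to 1555. Entrez identifiers of 20351 matched RefSeq (GRCm38.p6). Signals under each array's median were set to it, and log2 ratios were taken, with 2-fold as the size threshold; no test, p-value or replicate error exists with 1 array per strain, and the number of arrays limits the precision. The rule was to name every member probe set and, per list, genes beyond 2-fold or, where there were none, up to 4 with the largest ratios; some other genes were named after their values were seen. Members and lists were chosen with earlier results of these data known. Alternatives were median and spike-in centring, quantile normalization, lowess (span 0.3), floors at percentiles 25 and 60, omission of the floor, log2(signal + 32), omission of _x_at and _s_at probe sets, splitting by annotation and a minimum signal at percentile 75 (171 for DBA/1 and 162 for C57BL/6), the last added after the data were seen. Calculations used Python 3.11.15 (pandas 2.3.3, numpy 2.4.6, statsmodels 0.14.6) and were tested on simulated data.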

Additional observations from a re-analysis of the deposited data

How the results depend on the processing

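All 22 member ratios kept their size within the probe error of 0.31 under the 8 scalings, floors and pseudocounts, except 1451593_at (3.76 when the floor was at percentile 60 and 4.004 for log2(signal + 32), against 4.68) and 1451644_a_at (-2.08 with log2(signal + 32), against -2.45). The number at least 2-fold apart was 7 under each of these 8 and with the added minimum signal, 5 without _x_at and _s_at probe sets, 2 over probe sets of 1 gene and 5 over those of several genes, whose median log2 ratio was -1.18 against -0.18 over all 22. Scaling moved the split of all probe sets beyond 2-fold from 385 higher and 280 lower in DBA/1 as deposited to 294 and 345 after median centring and 293 and 346 after spike-in centring. Their share, 5.6%, became 3.63% when the floor was at percentile 60 and 3.72% for log2(signal + 32). With the floor at percentile 60, 1 of the other class I-like genes was beyond 2-fold in place of 2, and without _x_at and _s_at probe sets the median of that list was 1.04 in place of 0.61. With log2(signal + 32), 1 regulator in place of 2 and 6 interferon response genes in place of 10 were beyond 2-fold. The median of the class I receptors was -1.06 with no floor and with the floor at percentile 25, in place of -0.56. No paired analysis was possible because each strain has 1 array, and for the same reason no array could be left out. Signals near the floor limit the dim probe sets, and 1451593_at has only a bound.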

Other observations

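The class I genes lie in the H2 complex on chromosome 17, so the genes between Tapbp and H2-M3 in RefSeq order were also counted, an interval chosen after the values had been seen. Of 77 genes there with a probe set of their own above the floor, 10 (13.0%) were at least 2-fold apart between the strains, 5 in each direction, against 20 of 298 (6.71%) on the rest of chromosome 17 and 5.74% of all genes. Those higher in DBA/1 were the class II chains H2-Ea (at least 11.7-fold) and H2-Oa, the myeloid genes Lst1 (670 in DBA/1 and 124 in C57BL/6, 5.41-fold) and Aif1 (135 in DBA/1 and 48.5 in C57BL/6, 2.79-fold), and Ier3. Those lower in DBA/1 were H2-Eb1, Tap1, the heat shock genes Hspa1a and Hspa1b, and D17H6S56E-5 (67.0 in DBA/1 and 299 in C57BL/6, 4.46-fold). The neighbours of Tap1 did not move with it: Psmb9, Psmb8 and Tap2 had log2 ratios of 0.31, 0.18 and -0.078. The median log2 ratio of the interval, 0.15, was close to the 0.10 of all genes.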
